A study of Mus musculus with 9 samples.

Results

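Introns of the genes for heterogeneous nuclear ribonucleoproteins (hnRNPs) and of the FET proteins Ewsr1 and Taf15 were examined in mouse embryonic stem cells given an inhibitor of the Clk kinases. The genes were taken from a list of 30 names, and every intron in the authors' deposited table that carried 1 of those names was included. This gave 141 introns of 22228, in 25 of the names. They include 5 introns of Msi2, a Musashi gene on the list, which are counted below with the hnRNP and FET introns. No intron was listed for Hnrnpa0, Pcbp1 or Hnrnpa1l2-ps2, each of which has 0 annotated introns in the GENCODE M21 annotation. Hnrnpdl and Hnrnpll were listed under their older names Hnrpdl and Hnrpll, which are used below. The cells were of the v6.5 line, grown on gelatin with serum and ESGRO, and polyadenylated RNA was sequenced with its strand kept. KH-CB19, a Clk inhibitor, was dissolved in dimethyl sulfoxide (DMSO) and given at a concentration that the labels state as 10 mM, and controls received DMSO only. Cells were harvested straight after the addition (0 h) or 2 h later, with 2 libraries in each of the 4 groups, described as independent biological replicates. A further untreated library was not analysed here. All values below are the authors' means over the 2 libraries of a group. The spread between libraries is not known from them, and neither is whether the libraries of 2 groups overlapped.

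hnRNPs are abundant nuclear proteins that coat nascent transcripts, influence the choice of splice sites, and follow mRNA into export, translation and decay. The FET proteins bind RNA and associate with RNA polymerase II, and take part in transcription and splicing. Clk kinases phosphorylate SR proteins, a different family of splicing regulators that often acts against hnRNPs at the same exons. Detained introns are introns that stay in otherwise spliced, polyadenylated transcripts, which are kept in the nucleus, and many genes for RNA-binding proteins are known to have them.

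The labelled cell type was checked on the same table. Introns of 22 of 24 marker genes of embryonic stem cells were present, all but Sox2 and Klf5. Of 13 fibroblast or feeder markers only Fn1 had introns in the table, and of 19 markers of germ layers and trophoblast only Tfap2c. Observed reads summed over marker introns came to 16099.5 in DMSO and 11846.5 in KH-CB19 at 0 h for the 74 introns of the stem cell list. The sums were 3265.5 and 2562 for the 14 introns of Fn1, and 84.5 and 73 for the 3 of Tfap2c. Sums grow with the number of introns. The median observed mean per intron in DMSO was 51.5 reads for the stem cell list, 90.25 for Fn1 and 22.5 for Tfap2c. RNA integrity numbers ran from 8.8 to 9.4. As a check of the compound, all 6 detained introns of Clk1 and Clk4, which encode kinases that KH-CB19 inhibits, fell at 2 h in the authors' deposited table, from a log2 ratio of −0.78 in Clk1 intron 11 to −3.56 in Clk1 intron 5. Clk1 and Clk4, like the other genes and lists, were chosen with earlier results of these data known, so their falls are no independent check. All values here are bulk values from introns alone. A change in the number of transcripts, in the share of transcripts that keep the intron, and in the number of cells cannot be told apart.

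The splice sites of 4 introns are shown because the results turn on them: introns 7 and 10 of Hnrnph1, which fell at 2 h, intron 35 of Taf15, which stood apart at 0 h, and intron 15 of Ewsr1, the neighbour of the intron with the most reads in DMSO in any of these genes. They were read from transcripts of GENCODE M21 (GRCm38) in which the whole intron lies inside an exon of another transcript of the gene. This could be done for 15 of the 141 introns, of which those in UTRs and those outside the detained class are not shown. Each donor window holds 9 exonic and 15 intronic bases with the first 6 intronic bases in capitals, and each acceptor window holds 21 intronic and 9 exonic bases with the last 2 intronic bases in capitals.
Hnrnph1 intron 7, donor: tcttctcagGTATGTagtcctgtt
Hnrnph1 intron 7, acceptor: ttatttgtccttgggttgaAGggttggaaa
Hnrnph1 intron 10, donor: agggcacagGTGGGGatggatggt
Hnrnph1 intron 10, acceptor: tccttttggacaatgctttAGgtatattga
Taf15 intron 35, donor: gagaccgagGTGGCTatggtggag
Taf15 intron 35, acceptor: gtggttatggtggggaccgAGgaggcagct
Ewsr1 intron 15, donor: agcctggtgGTAAGTttttgagta
Ewsr1 intron 15, acceptor: atgatctttcctggttggcAGgacccatgg

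Against the 9-base donor consensus CAGGTAAGT, read on the transcribed strand over 3 exonic and 6 intronic bases, Hnrnph1 intron 7 matched at 8 positions, Ewsr1 intron 15 at 7, Hnrnph1 intron 10 at 6 and Taf15 intron 35 at 5. The 20 bases that end 1 base before the acceptor AG held 14 pyrimidines in Hnrnph1 intron 10, 12 in Hnrnph1 intron 7 and in Ewsr1 intron 15, and 7 in Taf15 intron 35. Over the 1826 introns of the whole table whose sequence could be read in this way, the medians were 6 matches and 14 pyrimidines. Taf15 intron 35 was also the richest in G and C of the 4, at 58.3%, against 35.5% in Ewsr1 intron 15, 33.5% in Hnrnph1 intron 10 and 30.1% in Hnrnph1 intron 7. These matches describe the letters and say nothing of how well a site is used.

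Observed reads were compared with expected reads, intron by intron, in each 0 h group. For each intron the authors gave an observed mean and an expected mean at 0 h, with a log2 ratio and an adjusted p-value. They classed 28 of the 141 hnRNP and FET introns as detained (19.9%), in 17 genes, against 15.5% of all introns. In the DMSO group 138 of the introns had a value. By the authors' adjusted p below 0.05, 32 of them were above expectation (23.2%), against 28.2% of all introns, and 62 were below it (44.9%), against 10.9% of all introns. In the KH-CB19 group 128 had a value, of which 29 were above expectation, against 27.6% of all introns, and 54 below it, against 8.93%. The share above expectation was thus near that of all introns, and the share below it was larger. These introns also had more reads, with a median observed mean of 53.75 in DMSO against 26 over all introns. Summed by gene, observed reads were within 0.05 of expected reads as a ratio in 10 of the 25 genes. The median ratio over all genes of the table was 1.55. The part of either in the share below expectation was not tested. Among introns with an observed mean of at least 50 reads the number below expectation was 18 in DMSO and 9 in KH-CB19, but that minimum removes introns because they are low.

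**Figure D1:**
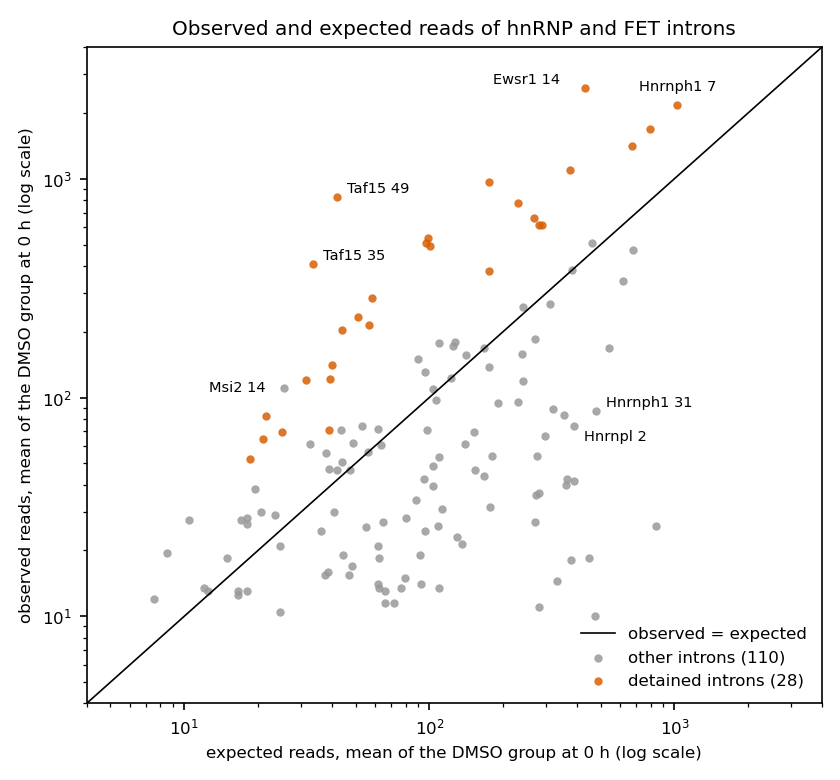
Observed against expected reads at 0 h in the DMSO group, both as the authors' group means on log scales, with 1 point for each of the 138 hnRNP and FET introns that have a value. The 28 detained introns lie above the line of equality and most other introns below it, with Taf15 introns 35 and 49 farthest above. Taf15 introns 35 and 49 also lie in a coding exon of another Taf15 transcript.

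Of the 28 detained introns, 27 were above expectation in DMSO and 26 in KH-CB19, with 25 above in both. Over the whole table it was 3408 of 3453 detained introns in DMSO and 3207 of 3423 in KH-CB19, so nearly all there too. How the class was set is not given in the sources used here and it may use the same excess, so this is a description. The median detained intron held 3.46 times its expected reads in DMSO, against 3.56 times over all detained introns. Per length, detained introns held more reads than the other listed introns in all 17 genes, by a median of 9.38-fold, from 1.92-fold in Hnrnpd to 52.5-fold in Syncrip. The Syncrip value rests on a single other intron with a value in DMSO, intron 12, with 14 reads. Hnrnpa1, Hnrnpa3, Hnrnpab, Hnrnpf, Hnrnph2, Hnrnph3, Hnrnpul2 and Msi2 had introns in the table but none of the detained class.

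Taf15, a FET protein, had the highest ratios. Its intron 49 had an observed mean of 826.5 reads against 42 expected in DMSO and 2065 against 56.5 in KH-CB19, which the authors' deposited table gives as 4.30 and 5.19 on the log2 scale. Intron 35 had 408.5 reads against 33.5 in DMSO and 885.5 against 44.5 in KH-CB19, given there as 3.61 and 4.31. Both introns lie in a coding exon of another Taf15 transcript, as described below. Reads of that exon cannot be told apart from reads of unspliced introns. The third detained intron of Taf15, intron 12, had 1408 reads against 672 in DMSO, and 927 against 893 in KH-CB19. It was thus above expectation in DMSO and close to it in KH-CB19, with authors' adjusted p-values of 3.48e-09 and 0.906. The expected means of the Taf15 introns were 1.32 to 1.35 times as high in KH-CB19 as in DMSO, and the observed reads summed over the gene were 4158 and 3139. Part of the difference in intron 12 between the groups thus lies in its expected mean. Its observed log2 ratio of KH-CB19 to DMSO at 0 h was −0.28 relative to the median intron. In 10 of the 25 genes the summed observed reads were within 0.05 of the summed expected reads as a ratio, and the median over all genes of the table was 1.55.

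Ewsr1, also of the FET family, had the intron with the most reads in DMSO. Its intron 14, which M21 places between coding exons, held 2601 observed reads against 430.5 expected in DMSO and 1825.5 against 300 in KH-CB19, about 6.04 times the expectation in DMSO. Intron 15, next to it, held 378 against 174.5 in DMSO and 240.5 against 121.5 in KH-CB19. These 2 introns carried 82.4% of the reads listed for Ewsr1 introns in DMSO and 82.3% in KH-CB19. Among introns with at least 50 reads, Ewsr1 introns 9 and 22 had 2 of the 8 lowest ratios, with 83 reads against 355.5 and 168 against 542.5 in DMSO.

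Among the remaining families, the ratio was high in Hnrnpa2b1, which binds RNA in splicing and mRNA transport. Its intron 36 held 971 reads against 175 expected in DMSO, and intron 33, which lies in the 3′ UTR, 506 against 96.5. In Raly, a relative of hnRNP C, intron 8 held 537.5 reads against 99. In Syncrip, also called hnRNP Q, intron 6 held 233.5 against 51. Lower ratios stood in Hnrnph1, where intron 7 held 2167.5 reads against 1024 and intron 10 held 1687.5 against 794.5. In Hnrnpd and Hnrpdl, related proteins that bind AU-rich RNA, intron 4 of Hnrnpd held 613 against 287 and intron 15 of Hnrpdl 611.5 against 281. The range over detained introns in DMSO was 0.86 to 4.30 on the log2 scale, and the lowest value, in Pcbp2 intron 12 with 71 reads against 39, was not past the threshold (adjusted p = 0.0894 in the authors' deposited table).

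Outside the detained class 5 introns were also above expectation in DMSO, and 4 of them had at least 50 reads. They are 5 of 110 introns with a value, against 14.8% of all introns outside the class. Intron 14 of Msi2, whose Musashi protein regulates translation in stem cells, held 111 reads against 25.5 in DMSO and 90.5 against 20.5 in KH-CB19, with 2.12 as the log2 value for DMSO in the authors' deposited table. That ratio is above the median of the detained introns in these genes, 1.79, though the intron is not in that class. The others were Hnrnpul2 intron 11 with 61.5 reads against 32.5, Raly intron 13 with 149.5 against 89.5, Hnrnpa1 intron 9 with 178 against 109.5, and, with fewer reads and named after its value was seen, Hnrnpk intron 18 with 27.5 against 10.5. At the other end, the lowest ratios among introns with at least 50 reads belonged to Hnrnph1 intron 31 (86.5 against 478), Hnrnpl intron 2 (74 against 388), Hnrnpl intron 15 (54 against 276) and Hnrnpa2b1 intron 32 (67 against 295.5), followed by Ewsr1 intron 9. Taf15 intron 23 (89 against 320.5) and Hnrpdl intron 8 (54 against 181) came next. Low and high introns thus stood side by side in Hnrnph1, Hnrnpl, Hnrnpa2b1, Ewsr1, Taf15 and Hnrpdl. In these genes the summed observed reads in DMSO were 1.00 (Hnrpdl) to 1.12 (Ewsr1) times the summed expected reads. Where the sums are that close, an intron far above expectation leaves others below it, so this pattern is no separate result.

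**Figure D2:**
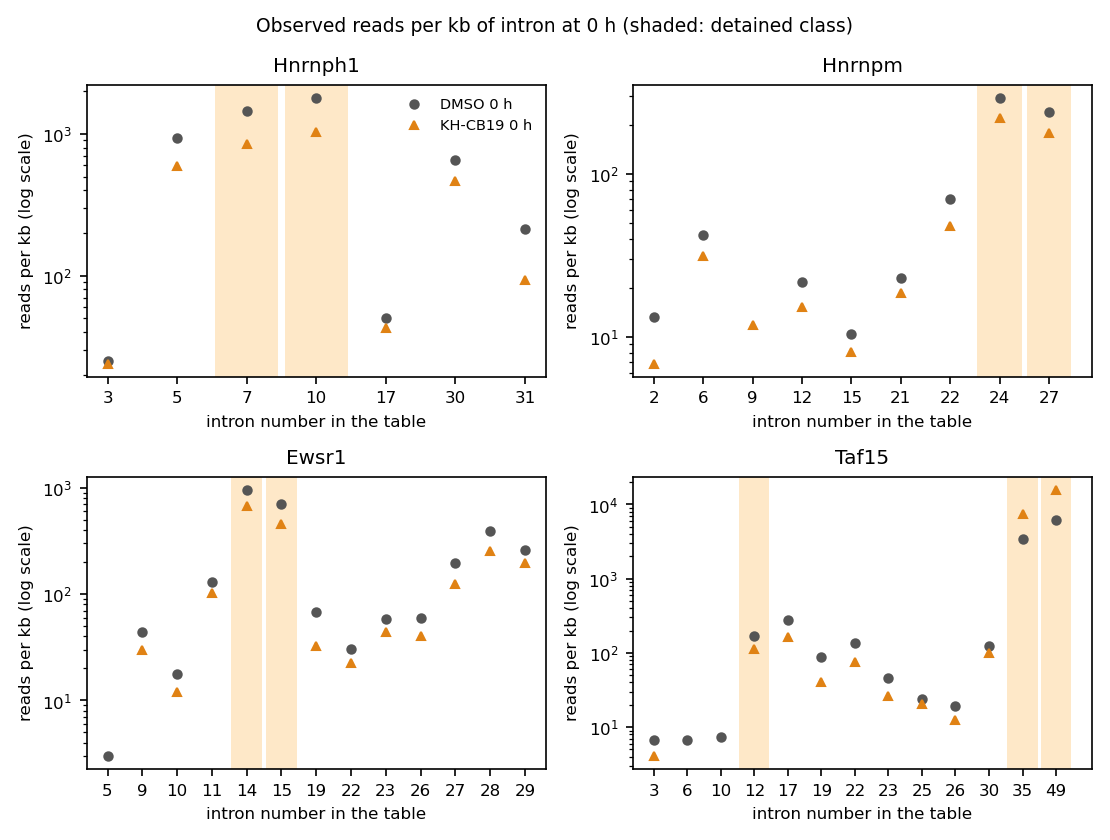
Observed reads per kb of intron at 0 h on a log scale for the listed introns of Hnrnph1, Hnrnpm, Ewsr1 and Taf15 in table order, with circles for DMSO, triangles for KH-CB19 and shading for the detained class. KH-CB19 lies below DMSO in most introns, as its unscaled means do over the whole table, but above it in Taf15 introns 35 and 49.

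The main comparison asked how detained introns differed between KH-CB19 and DMSO after 2 h. In 4 genes 5 introns fell: introns 7 and 10 of Hnrnph1, intron 24 of Hnrnpm, intron 15 of Hnrnpr and intron 15 of Hnrpdl. Rises were found in intron 4 of Hnrnpu and intron 12 of Taf15. The other 21 did not pass the authors' adjusted p of 0.05. The 5 falls are 17.9% of the 28 detained introns, against 4.17% of all 3454, and the 2 rises 7.14%, against 5.47%. The detained introns of these genes also had more reads, with a median DMSO mean at 2 h of 355 reads against 57.9 over all detained introns, and the part of depth in the share of calls was not tested. The median log2 ratio was 0.06 with quartiles at −0.33 and 0.32, against −0.00 and quartiles at −0.35 and 0.34 over all detained introns. At an adjusted p below 0.01 only the fall in Hnrnpm and both rises passed.

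**Figure D3:**
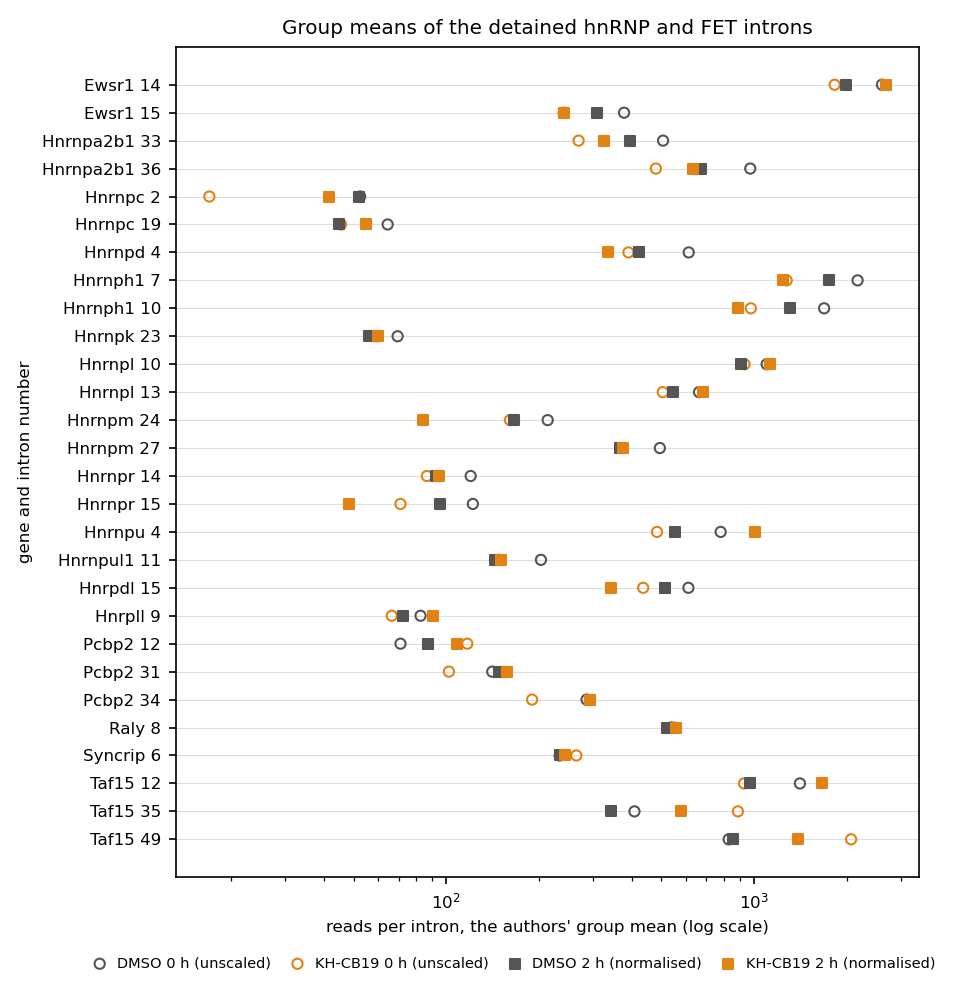
The authors' 4 group means for each of the 28 detained introns on a log scale, with open circles for the unscaled 0 h means, squares for the normalised 2 h means, grey for DMSO and orange for KH-CB19. Only symbols of the same shape share a scale. In the introns that fell, such as Hnrnpm intron 24 and Hnrnpr intron 15, the KH-CB19 square lies to the left of the DMSO square. In Hnrnpu intron 4 and Taf15 intron 12 it lies to the right.

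Hnrnpm encodes a splicing regulator that binds GU-rich RNA. Its intron 24 (mm9 chr17:33785810-33786539, minus strand, 730 bases, between coding exons) had authors' means of 213.5 reads in DMSO and 161 in KH-CB19 at 0 h, and of 166 and 84.3 normalised reads at 2 h. The 2 h means differ by 1.98-fold, a log2 ratio of −0.98 with an adjusted p of 0.00276 in the authors' deposited table. Intron 27, the next one in the table, did not pass. Its means were 494 and 368 reads at 0 h and 366 and 375 at 2 h, given in the authors' deposited table as 0.03 on the log2 scale with an adjusted p of 0.983.

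Hnrnpr, a relative of Syncrip that binds mRNA in the nucleus and cytoplasm, showed the same contrast between neighbours. Intron 15 (mm9 chr4:135885417-135888312, plus strand, 2896 bases, between coding exons) had means of 122 reads in DMSO and 71 in KH-CB19 at 0 h, and of 95.4 and 48.3 at 2 h. This was a fall of 1.98-fold, with a log2 ratio of −0.98 and an adjusted p of 0.017 in the authors' deposited table. Intron 14, directly before it, had means of 120 and 86.5 at 0 h and 92.6 and 94.5 at 2 h, a log2 ratio of 0.03. The difference between neighbouring introns was not tested in either gene. In Syncrip, intron 6 had 233.5 and 264.5 reads at 0 h and 234 and 242 at 2 h, a log2 ratio of 0.05.

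Hnrnph1 encodes hnRNP H1, which binds runs of G. Its intron 7 (mm9 chr11:50193467-50194960, plus strand, 1494 bases) had means of 2167.5 reads in DMSO and 1275.5 in KH-CB19 at 0 h, and of 1748 and 1242 at 2 h, given in the authors' deposited table as −0.49 on the log2 scale with an adjusted p of 0.0462. Intron 10 (mm9 chr11:50195100-50196038, plus strand, 939 bases) had 1687.5 and 975.5 at 0 h, and 1306 and 884 at 2 h, given in the authors' deposited table as −0.56 on the log2 scale with an adjusted p of 0.0187. Unlike in Hnrnpm and Hnrnpr, both detained introns fell, by 1.41-fold and 1.48-fold. Their KH-CB19 mean was already the lower of the 0 h pair, as described below.

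Hnrpdl encodes the hnRNP D-like protein. Its intron 15 (mm9 chr5:100464759-100465122, minus strand, 364 bases) lies in M21 inside a 3′ UTR exon of a protein-coding transcript and is an intron of transcripts annotated as nonsense-mediated decay or retained intron. It had means of 611.5 reads in DMSO and 436 in KH-CB19 at 0 h, and of 514 and 342 at 2 h, given in the authors' deposited table as −0.59 on the log2 scale with an adjusted p of 0.0295. In Hnrnpd, intron 4 had 613 and 390.5 reads at 0 h, and 422 and 334 at 2 h, for a log2 ratio of −0.34 with an adjusted p of 0.322 in the authors' deposited table.

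Hnrnpu encodes a large nuclear protein that binds RNA and chromatin. Its intron 4 (mm9 chr1:180264158-180266012, minus strand, 1855 bases, between coding exons) had means of 778.5 reads in DMSO and 483.5 in KH-CB19 at 0 h, and of 554 and 1008 at 2 h. The KH-CB19 mean was the lower of the pair at 0 h and the higher at 2 h. The 0 h means are unscaled, and in the median intron of the table KH-CB19 stood at 0.8 times DMSO. Such a turn was also seen in detained introns that did not pass, such as introns 10 and 13 of Hnrnpl. The 2 h means differed by 1.82-fold, a log2 ratio of 0.86 with an adjusted p of 0.0043 in the authors' deposited table. Intron 11 of the related Hnrnpul1 had 203 and 148 reads at 0 h, and 144 and 151 at 2 h, a log2 ratio of 0.07.

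Taf15 intron 12 (mm9 chr11:83302449-83310763, plus strand, 8315 bases) had means of 1408 reads in DMSO and 927 in KH-CB19 at 0 h, and of 972 and 1661 at 2 h. The order of the groups again turned between the unscaled 0 h means and the 2 h means, as it also did in Ewsr1 intron 14 below. The rise at 2 h was 1.71-fold (0.77 on the log2 scale, with 0.000363 as the adjusted p in the authors' deposited table). Intron 35 (mm9 chr11:83318213-83318332, plus strand, 120 bases) had 408.5 and 885.5 reads at 0 h, and 344 and 579 at 2 h, given in the authors' deposited table as 0.75 on the log2 scale with an adjusted p of 0.101. Intron 49 (mm9 chr11:83318381-83318512, plus strand, 132 bases) had 826.5 and 2065 at 0 h, and 853 and 1383 at 2 h, given in the authors' deposited table as 0.70 on the log2 scale with an adjusted p of 0.107. So the 3 detained introns had like ratios at 2 h, and only intron 12 passed. In Ewsr1, intron 14 had 2601 and 1825.5 reads at 0 h, and 1990 and 2673 at 2 h, a log2 ratio of 0.43 whose adjusted p of 0.0934 in the authors' deposited table was the smallest among the introns that did not pass. Its neighbour, intron 15, had 378 and 240.5 at 0 h, and 308 and 242 at 2 h, a log2 ratio of −0.35.

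No detained intron passed at 2 h in the remaining families. In the A/B type, Hnrnpa2b1 intron 33 had 506 and 269 reads at 0 h and 395 and 324 at 2 h, and intron 36 had 971 and 479.5 at 0 h and 670.0 and 634 at 2 h, for log2 ratios of −0.29 and −0.08. In Hnrnpl, which binds CA-rich RNA, intron 10 had 1098 and 930.5 reads at 0 h and 904 and 1124 at 2 h, and intron 13 had 662 and 505 at 0 h and 544 and 683 at 2 h, for log2 ratios of 0.31 and 0.33. Intron 9 of the related Hnrpll had 82.5 and 66.5 reads at 0 h and 72.3 and 90.3 at 2 h, a log2 ratio of 0.32. The 3 introns of this type thus had positive ratios of like size, with adjusted p-values from 0.298 to 0.586 in the authors' deposited table.

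Proteins with K-homology domains, which bind C-rich RNA, had 4 detained introns. Hnrnpk intron 23, which in M21 holds the microRNA gene Mir7-1, had 69.5 and 59.5 reads at 0 h and 55.9 and 60.1 at 2 h, a log2 ratio of 0.10. Pcbp2 intron 31 had 141 and 102 reads at 0 h and 149 and 157 at 2 h, and intron 34 had 285.5 and 190 at 0 h and 293 and 292 at 2 h, for log2 ratios of 0.08 and −0.00. Pcbp2 intron 12 had 71 and 117 reads at 0 h, and 87.1 and 109 at 2 h, a log2 ratio of 0.32. In Hnrnpc, which binds uridine tracts in nascent RNA, intron 2 had 52.5 and 17 reads at 0 h and 52.1 and 41.7 at 2 h, and intron 19 had 64.5 and 45.5 at 0 h and 44.9 and 54.9 at 2 h, for log2 ratios of −0.32 and 0.29. Raly intron 8 had 537.5 and 550 reads at 0 h and 520 and 559 at 2 h, a log2 ratio of 0.11. Among the 21 introns that did not pass, ratios ran from −0.35 to 0.75, and 7 were within 0.1 of 0.

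At 0 h the compound had only just been added, so that pair of groups is the starting point of the treatment comparison. Of the 28 detained introns, 4 differed between KH-CB19 and DMSO by more than 2-fold at 0 h, against 0.643% of all introns with a 2 h value. They were Taf15 introns 35 and 49 and Pcbp2 intron 12, higher in KH-CB19, and Hnrnpc intron 2, lower. The 0 h means are unscaled, so each log2 ratio was set relative to the median intron of the table, at −0.32, and no test is possible on group means. Relative to that median, the ratio was 1.64 in Taf15 intron 49, 1.44 in Taf15 intron 35, 1.04 in Pcbp2 intron 12 and −1.30 in Hnrnpc intron 2. The central 95% of detained introns lay between −0.60 and 0.65. With a pseudocount of 10 reads the count was 2, and Hnrnpc intron 2 rests on means of 52.5 and 17 reads.

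In Taf15 the higher means in KH-CB19 stood in the last 2 introns listed. Over the other 9 Taf15 introns with both values the median ratio at 0 h was −0.39, from −0.82 to 0.11, and 7 were negative. Introns 35 and 49 held 39.3% of the reads listed for the gene in DMSO and 71.0% in KH-CB19. Intron 35, matched to M21 by gene, strand and length, lies wholly inside a 463-base coding exon of another protein-coding Taf15 transcript. Intron 49 follows after 48 bases and ends 180 bases past the end of intron 35, and that exon runs on for 274 bases past it, so both lie in it. Reads of that exon in transcripts that keep it cannot be told apart from reads of unspliced introns. The splice site windows of intron 35 printed above are therefore also coding sequence of that transcript.

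**Figure D4:**
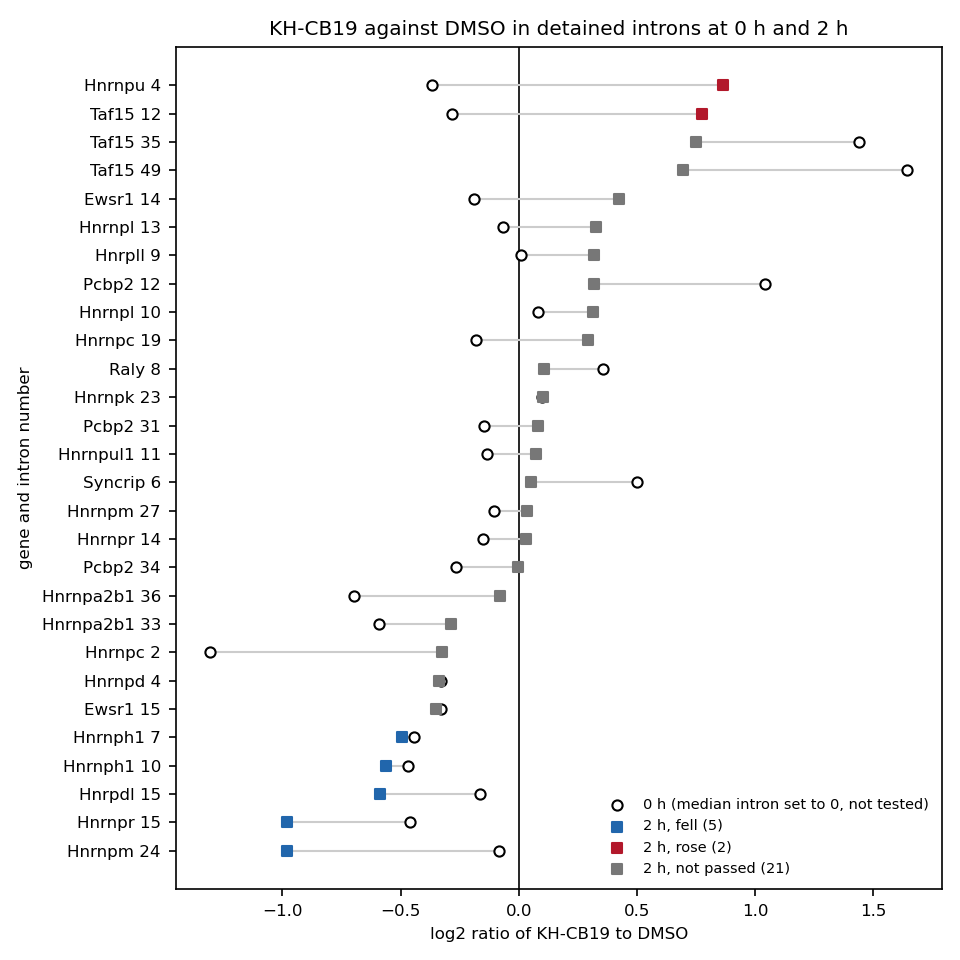
Log2 ratio of KH-CB19 to DMSO in the 28 detained introns, with open circles for 0 h (the median intron of the table set to 0, not tested) and squares for the authors' ratios at 2 h, blue where the intron fell, red where it rose and grey where it did not pass. Circle and square nearly coincide in Hnrnph1 introns 7 and 10 and lie apart in Hnrnpm intron 24. They lie on opposite sides of 0 in several introns, among them Hnrnpu intron 4 and Taf15 intron 12.

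Set beside the 2 h ratios, the 7 introns that passed differed in their 0 h ratios. Hnrnph1 intron 7 had a log2 ratio of −0.44 at 0 h and −0.49 at 2 h, and Hnrnph1 intron 10 had −0.47 and −0.56. In these 2 introns the difference between KH-CB19 and DMSO was nearly as large at 0 h as at 2 h. Hnrnpr intron 15 had −0.46 at 0 h and −0.98 at 2 h, and Hnrpdl intron 15 had −0.17 and −0.59. Hnrnpm intron 24 was close to the median intron at 0 h, at −0.09, and at −0.98 at 2 h. Both introns that rose had negative ratios at 0 h, −0.37 in Hnrnpu intron 4 and −0.28 in Taf15 intron 12. The 0 h ratios of all 7 were within the central 95% of detained introns, and the difference between the times was not tested. The detained introns of Clk1 and Clk4 were also lower in KH-CB19 at 0 h, by ratios from −0.14 to −0.51 relative to the median intron.

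Between 0 h and 2 h within each treatment, introns were again compared relative to the median detained intron, because 0 h means are unscaled and 2 h means normalised. In DMSO none of the 28 differed by more than 2-fold between the times, against 0.608% of all detained introns, and the range was −0.22 to 0.61 with the highest value in Pcbp2 intron 12. In KH-CB19, 2 of the 28 did, Hnrnpc intron 2 at 1.28 and Hnrnpu intron 4 at 1.04 on the log2 scale, against 9.35% of all detained introns. With a pseudocount of 10 reads this count was 1. Taf15 intron 12 had a ratio of 0.82 in KH-CB19 and −0.22 in DMSO, while Taf15 introns 35 and 49 had −0.63 and −0.60 in KH-CB19 and 0.07 and 0.37 in DMSO. Hnrnpm intron 24 had the lowest ratio in KH-CB19, −0.95, beside −0.04 in DMSO. The Hnrnph1 introns had ratios close to the median in both groups, with −0.05 and −0.16 in KH-CB19 and 0.01 and −0.05 in DMSO for introns 7 and 10. These values share group means with the comparisons above and are no independent check of them.

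Related gene lists were read from the same table. Of 31 further RNA-binding proteins of the hnRNP class, 26 had introns listed, and 25 of their 141 introns were detained (17.7%), against 15.5% of all introns. Of the 25, 2 rose (8%), both in Ybx1, against 5.47% of all detained introns. Intron 7 of Elavl1, which stabilises AU-rich mRNA, fell (log2 ratio −1.36, 112 against 43.7 reads), and intron 17 of Ybx1, a cold-shock domain protein, rose (0.82 in the authors' deposited table, 713 against 1261 reads). Among 14 genes for nuclear import and arginine methylation, which act on hnRNP and FET proteins, 23 of 81 introns were detained (28.4%), in 11 genes. Of the 23, none fell and 1 rose (4.35%), intron 25 of the importin gene Ipo7 (log2 ratio 1.03 in the authors' deposited table, 48.3 against 99.0 reads). For the classical SR proteins, the best-known substrates of Clk kinases, 10 of 39 introns were detained (25.6%), in 6 genes. Of the 10, 5 fell (50%) and 1 rose (10%), against 4.17% and 5.47% of all detained introns. Their median log2 ratio at 2 h was −0.59, beside 0.06 in the hnRNP and FET genes. By smallest adjusted p the first of the SR introns was Srsf7 intron 6, with 247 reads in DMSO and 43.1 in KH-CB19 (log2 ratio −2.52 in the authors' deposited table), followed by Srsf3 intron 5 (−1.56), Srsf5 intron 9 (−1.76) and Srsf7 intron 8 (−1.65). No test compared these lists with each other.

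Intron length was not used to choose the genes. The median detained intron of hnRNP and FET genes was 1004.5 bases long and the median other intron 900, against 1562 and 2044 bases over all introns of each class. The shortest detained intron was intron 35 of Taf15 (120 bases) and the longest intron 4 of Hnrnpd (9146 bases). Only 19 of the 28 detained introns (67.9%) could be matched to M21 by gene, strand and length, so position along the gene and annotation are not summarised over them. Of those 19, 7 (36.8%) lie wholly inside an exon of another M21 transcript, against 17.0% of all matched detained introns. They are Ewsr1 intron 15, Hnrnpa2b1 intron 33, Hnrnpc intron 2, Hnrnph1 introns 7 and 10, Hnrpdl intron 15 and Taf15 intron 35. Of the 5 introns that fell, 3 are among them, Hnrnph1 introns 7 and 10 and Hnrpdl intron 15. The same share among all introns that fell was not computed, so no link is read from this count. That transcript is protein-coding for Hnrnpc, Hnrpdl and Taf15, a retained-intron transcript for Hnrnpa2b1, and a processed transcript for Ewsr1 and Hnrnph1.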

How the data were processed

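Values came from a single deposited table of introns on build mm9. The tools named in the submitters' processing notes are TopHat2 2.0.9, Bowtie 1.0.0, Cufflinks 2.1.1, bedtools 2.17.0, SAMtools 0.1.19 and DESeq. Settings, the treatment of reads with several matches, and the making of the expected means and of the detained class are not given in the sources used here. Per the file headers, the authors gave observed and expected means at 0 h, which are multiples of 0.5 and so unscaled, with log2 ratios and an adjusted p-value. The low means at 0 h were replaced by a word for low coverage. For detained introns the authors also deposited normalised means at 2 h (a signal of reads per intron), a log2 ratio and an adjusted p-value, taken to be from DESeq. No count of a separate library was used, so the count model planned for that case was not fitted, and no SD between libraries and no test was computed here.

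Computed here, with Python 3.11.15 and pandas 2.3.3, were counts and medians over the listed genes and over all introns, reads per kb, and log2 ratios between 0 h groups and between times, each minus its median over introns. File starts count from 0 and were raised by 1. The code was tested on simulated data. Introns were matched to GENCODE M21 (GRCm38) by gene, chromosome, strand and exact length. The genes and lists were chosen with earlier results of these data known. Named were all detained introns, up to 8 highest and 8 lowest other introns with an adjusted p below 0.05 and at least 50 reads in DMSO, detained introns of Clk1 and Clk4, and up to 4 introns a list with an adjusted p below 0.05. Introns of Taf15 outside this rule are given as ranges. Not every intron that meets it is reported here. The alternatives were another threshold, a read minimum, pseudocounts, other scalings and counting by gene.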

Additional observations from a re-analysis of the deposited data

How the results depend on the processing

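Every ratio of the 28 detained introns kept its sign where it was called, and no result was reversed under the alternatives tried. With at least 50 observed reads, introns below expectation numbered 18 in place of 62 in DMSO and 9 in place of 54 in KH-CB19. With 0.01 as the threshold on the adjusted p at 2 h, 1 intron fell in place of 5, and 4 of the 7 called introns no longer passed. With a pseudocount of 10 reads, 2 detained introns in place of 4 were past 2-fold between the 0 h groups, and 1 in place of 2 between the times in KH-CB19. The cause was not tested, other than that a minimum on observed reads removes low introns by construction. Scaling by summed reads moved 6 values of single introns between times or groups beyond their counting error, and a pseudocount of 10 moved 3, none past 0 among called ones. No hnRNP or FET introns overlap, so keeping 1 per overlapping group changed nothing. No paired analysis was possible because the table holds group means only; for the same reason no library was left out in turn. The libraries' full depth was not given by these intron means, and ratios below about 50 reads rest on few reads.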

Other observations

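The 113 hnRNP and FET introns outside the detained class have no 2 h values, but 97 of them have means in both 0 h groups. Their median log2 ratio of KH-CB19 to DMSO at 0 h, relative to the median intron of the table, was −0.15, with quartiles at −0.31 and 0.09 and a range from −0.86 to 0.50. None was past 2-fold, against 50 of 14658 introns outside the class over the whole table. The lowest value belonged to intron 31 of Hnrnph1, with 86.5 reads in DMSO and 38 in KH-CB19, and the highest to intron 9 of Hnrnpab, chosen for mention after its value was seen. In Hnrnph1 the 5 introns outside the detained class had a median of −0.19 at 0 h, beside −0.44 and −0.47 in the detained introns 7 and 10. Intron 14 of Msi2, 17792 bases long, kept its excess in both groups, with authors' adjusted p-values of 5.97e-10 in DMSO and 1.47e-08 in KH-CB19.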
